A study of Homo sapiens with 18 samples.

Results

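The aryl hydrocarbon receptor (AhR, gene AHR), its partner ARNT and the genes best known to respond to them were followed here as 9 genes: AHR, ARNT, AHRR, CYP1A1, CYP1A2, CYP1B1, TIPARP, NQO1 and ALDH3A1. They were chosen by name, and all 9 are among the 57500 genes of the deposited expression table. RNA enriched for poly-A was sequenced from SNU2535, NCI-H3122 and NCI-H2228, established human lines of non-small cell lung cancer (NSCLC) that carry EML4-ALK fusions and that the labels all give the genotype WT. Each line was exposed for 3 h to DMSO, the solvent control, or to 3 µM TRI-611, which the series title describes as a molecular glue degrader of ALK, with 3 libraries for each of the 6 groups. Each line stands for 1 tumour, and no group was given a compound other than TRI-611. The labels number the libraries of every group by batch, 1 to 3, but do not say that they came from separate cultures, so that a p-value here reflects the spread of these libraries alone, which may be technical.

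AhR is a ligand-activated transcription factor of the bHLH-PAS family. Without ligand it waits in the cytosol with HSP90 and PTGES3, and with ligand it enters the nucleus, pairs with ARNT and binds DNA elements with the core GCGTG. The cytochromes CYP1A1, CYP1A2 and CYP1B1, which oxidise polycyclic hydrocarbons and estrogens, are its classic targets. AHRR, a repressor that competes for ARNT, and TIPARP, an ADP-ribosyltransferase that modifies AhR, are induced by the receptor and restrain it. NQO1, a quinone reductase, and ALDH3A1, an aldehyde dehydrogenase, answer to AhR and also to NRF2, the factor of the oxidative stress response. In the lung and airway these enzymes are known for their response to tobacco smoke.

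The promoter sequences are shown because the core that AhR and ARNT bind can be read in them, next to genes whose RNA went different ways in these lines. RefSeq's promoter table (GRCh38.p14) matched 7 of the 9 genes with 10 windows, of which the 250 bases before each transcription start were searched for GCGTG on both strands. The core was found in 4 windows, of CYP1A1, AHRR and TIPARP, compared with 11313 of 35116 windows (32.2%) over all genes. Sequences run 5′ to 3′ on the gene's strand, and capitals mark GCGTG or its reverse complement CACGC. The CYP1A1 window (chr15:74725529-74725778, minus strand) holds the core 57 bases before the start, and the neighbouring CYP1A2 window (chr15:74748595-74748844, plus strand) has no such match. The first AHRR window (chr5:321464-321713, plus strand) holds it 30 bases before the start, and the second (chr5:322360-322609, plus strand) at 247 and 42 bases. The first TIPARP window (chr3:156674340-156674589, plus strand) holds it on the opposite strand, at 208 and 142 bases. The longer form TNGCGTG, which overlaps the core, was in 1588 of all windows (4.52%) and in the first AHRR window among those of the 9 genes. These matches are letters in a window and do not show binding.
CYP1A1: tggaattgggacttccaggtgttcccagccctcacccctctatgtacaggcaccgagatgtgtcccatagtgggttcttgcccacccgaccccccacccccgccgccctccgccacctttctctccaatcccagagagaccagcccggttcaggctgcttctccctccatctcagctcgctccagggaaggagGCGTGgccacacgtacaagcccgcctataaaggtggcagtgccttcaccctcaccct
CYP1A2: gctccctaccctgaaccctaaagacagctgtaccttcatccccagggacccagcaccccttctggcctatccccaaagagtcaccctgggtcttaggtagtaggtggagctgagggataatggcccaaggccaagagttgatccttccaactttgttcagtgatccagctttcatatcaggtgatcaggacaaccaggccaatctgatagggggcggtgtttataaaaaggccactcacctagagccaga
AHRR window 1: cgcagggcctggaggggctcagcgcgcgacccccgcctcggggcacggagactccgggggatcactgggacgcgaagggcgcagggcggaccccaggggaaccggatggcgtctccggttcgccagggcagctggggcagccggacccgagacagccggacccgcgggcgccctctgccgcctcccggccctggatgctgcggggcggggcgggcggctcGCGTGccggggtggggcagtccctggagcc
AHRR window 2: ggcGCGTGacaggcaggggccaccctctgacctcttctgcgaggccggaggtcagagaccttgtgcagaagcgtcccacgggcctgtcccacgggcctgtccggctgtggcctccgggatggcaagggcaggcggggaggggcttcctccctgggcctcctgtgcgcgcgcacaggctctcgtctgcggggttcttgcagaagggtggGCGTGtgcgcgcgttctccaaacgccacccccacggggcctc
TIPARP window 1: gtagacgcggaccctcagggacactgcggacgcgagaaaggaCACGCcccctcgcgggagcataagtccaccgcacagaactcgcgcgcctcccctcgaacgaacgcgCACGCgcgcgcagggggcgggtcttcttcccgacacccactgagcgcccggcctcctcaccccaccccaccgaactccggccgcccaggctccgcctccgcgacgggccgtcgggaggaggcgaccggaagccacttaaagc

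Values are TPM, length- and library-scaled transcript abundances, which correct for gene length and for the total of the library and keep no read depth. Between 23766 and 25921 genes lay above 0 in each library, and mitochondrially encoded genes took 7.59% to 15.0% of TPM. Of 8 epithelial and lung markers (EPCAM, KRT7, KRT8, KRT18, CDH1, NKX2-1, NAPSA and SFTPB), all reached a mean of 1 TPM in SNU2535 and NCI-H2228 and 6 did in NCI-H3122, where NAPSA and SFTPB stayed under 1. Their summed level was 6949 to 7304 TPM in SNU2535, 6181 to 7322 TPM in NCI-H3122 and 2266 to 2460 TPM in NCI-H2228. The leukocyte markers PTPRC and CD3E and the hepatocyte markers ALB, APOA1 and CYP3A4 had means under 1 TPM in all lines. CD68, the third of the leukocyte list, had DMSO means of 2.30, 0.969 and 3.57 TPM in SNU2535, NCI-H3122 and NCI-H2228. Of the endothelial pair, PECAM1 had 6.43, 0.0720 and 2.42 TPM and VWF 0.609, 0.904 and 0.0799 TPM in the same order. Of the fibroblast markers, COL1A1 had 135, 12.3 and 380 TPM, while COL1A2 and PDGFRB had means under 1 TPM in all lines. The part of these markers in the results was not tested. In bulk RNA, fewer cells that express a gene and less RNA per cell cannot be told apart.

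The first comparison asked what TRI-611 did to each gene within a line, on log2(TPM + 1) with limma over all genes that passed the filter. A gene was called at a Benjamini-Hochberg adjusted p under 0.05. With TRI-611, 5 of the 7 genes tested were called higher and 1 lower in SNU2535, where 28.7% of all genes tested were called, 10.7% higher and 18.1% lower. In NCI-H3122, 5 of 8 rose and 1 fell, beside 34.1% called over all genes, 20.6% higher and 13.4% lower. In NCI-H2228, 4 of 8 rose, beside 11.2% called over all genes, 4.80% higher and 6.40% lower. CYP1A1 and CYP1B1 rose in every line, and ALDH3A1 was called higher in every line by small and less certain steps, whereas AHR and TIPARP moved in different directions. CYP1A1 passed the filter in SNU2535 only through its TRI-611 libraries and so had to differ there, which leaves 4 rises and 1 fall among the 6 other genes tested. CYP1A2 was too low to test, and AHRR in SNU2535 was too, so the counts cover the genes that passed the filter and not all 9. Leaving out any TRI-611 library of SNU2535 took its rises from 5 to 3, because CYP1A1 then no longer passed the filter and ALDH3A1 was no longer called.

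**Figure D1:**
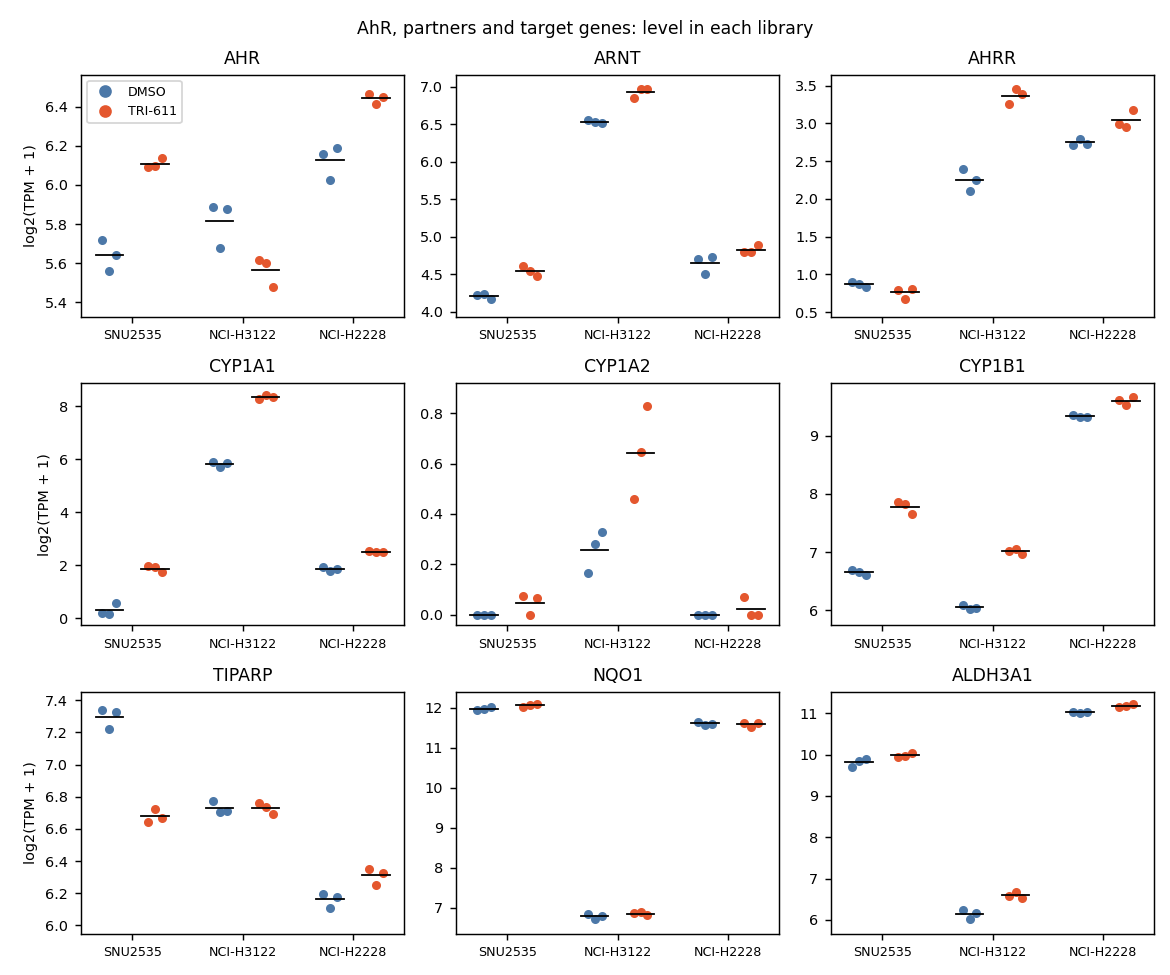
Level of each of the 9 genes in every library, as log2(TPM + 1), by line; blue points are DMSO libraries, orange points TRI-611 libraries and black bars the mean of 3. CYP1A1 and CYP1B1 sit higher with TRI-611 in all 3 lines, AHR is lower with TRI-611 only in NCI-H3122, and TIPARP is lower only in SNU2535.

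CYP1A1, the xenobiotic-oxidising enzyme most used as a readout of AhR (ENSG00000140465, chromosome 15, 74719542 to 74725610, GRCh38), rose in all 3 lines from very different starting levels. In NCI-H3122 it measured 58.4, 50.9 and 57.0 TPM with DMSO and 309, 339 and 320 TPM with TRI-611. The groups were far apart and the mean rose 5.83-fold, by 2.52 on the log2 scale (SE 0.0595, adjusted p = 3.42e-07). In SNU2535 it was nearly silent with DMSO, at 0.135, 0.103 and 0.470 TPM, and measured 2.87, 2.77 and 2.33 TPM with TRI-611. That is a rise of 1.58 (SE 0.185, adjusted p = 0.000614), the rank 19 rise among 16252 genes, and the ratio of the TPM means was 11.3. With the filter met by the TRI-611 libraries alone, this is a description and not a test, and the size on the log2 scale ran from 0.55 with a pseudocount of 5 to 3.19 with 0.1. In NCI-H2228 CYP1A1 measured 2.78, 2.40 and 2.65 TPM with DMSO and 4.71, 4.70 and 4.59 TPM with TRI-611, with no overlap. It rose there by 0.65 (SE 0.101, adjusted p = 0.00491), 1.79-fold in mean TPM. Within batches the differences were 1.18 to 1.77 in SNU2535, 2.38 to 2.71 in NCI-H3122 and 0.60 to 0.75 in NCI-H2228.

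CYP1B1, the estrogen- and hydrocarbon-oxidising enzyme of tissues outside the liver (ENSG00000138061, chromosome 2, 38066973 to 38109902), rose in all 3 lines, least in NCI-H2228, where it was highest to begin with. In SNU2535 it measured 103, 100 and 96.7 TPM with DMSO and 232, 225 and 201 TPM with TRI-611, a rise of 1.12 (SE 0.0563, adjusted p = 1.16e-05). For NCI-H3122 the values were 66.8, 64.2 and 65.1 TPM with DMSO and 129, 132 and 124 TPM with TRI-611, a rise of 0.96 (SE 0.0386, adjusted p = 3.5e-06). The DMSO and TRI-611 libraries did not overlap in either line. In NCI-H2228, where CYP1B1 was already high at 652, 639 and 642 TPM, it reached 779, 733 and 814 TPM and rose by 0.27 (SE 0.0398, adjusted p = 0.00414). The antisense transcript CYP1B1-AS1, whose reads cannot be told apart from those of CYP1B1 without a stated strand setting, rose in NCI-H3122 from 6.01 ± 0.838 to 11.2 ± 1.06 TPM (SD, n = 3; by 0.80, adjusted p = 0.00104). It was not called in SNU2535 (0.37, adjusted p = 0.101) or NCI-H2228 (0.30, adjusted p = 0.0655). It was called in SNU2535 in a fit of all 18 libraries (0.013), and in NCI-H2228 without mitochondrially encoded genes (0.0447) and with plain empirical Bayes (0.0448).

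CYP1A2, best known from the liver (ENSG00000140505, chromosome 15, 74748844 to 74756202), was near the bottom of the scale in every library. It was listed at 0 in the DMSO libraries of SNU2535 and NCI-H2228. With TRI-611 it was listed at 0.0517, 0 and 0.0481 TPM in SNU2535 and at 0.0498, 0 and 0 TPM in NCI-H2228. In NCI-H3122 it measured 0.122, 0.214 and 0.256 TPM with DMSO and 0.375, 0.563 and 0.775 TPM with TRI-611. These ranges did not overlap, and with the filter lifted the difference was 0.39 (adjusted p = 0.163). No 50-base word of its annotated transcripts occurs in those of CYP1A1, its neighbour on chromosome 15.

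AHR itself (ENSG00000106546, chromosome 7, 16916359 to 17346152) rose in SNU2535 and NCI-H2228 and was called lower in NCI-H3122. In SNU2535 the receptor's RNA measured 51.7, 46.1 and 49.0 TPM with DMSO and 67.2, 67.4 and 69.3 TPM with TRI-611, a rise of 0.47 (SE 0.0479, adjusted p = 0.000318). In NCI-H2228 it measured 70.5, 64.2 and 71.9 TPM with DMSO and 87.3, 84.2 and 86.3 TPM with TRI-611, a rise of 0.32 (SE 0.0493, adjusted p = 0.00496). The TRI-611 libraries were above every DMSO library in both lines. The NCI-H3122 values were 58.2, 50.2 and 57.8 TPM with DMSO and 48.0, 47.5 and 43.5 TPM with TRI-611, a fall of 0.25 (log2 difference -0.25, SE 0.0679, adjusted p = 0.0243). The lowest DMSO library lay only just above the highest TRI-611 library, and the batches differed by -0.40 to -0.08. That call was lost without DMSO replicate 1 (adjusted p = 0.075), DMSO replicate 3 (0.0799) or TRI-611 replicate 3 (0.0657), with the filter lifted (0.0727) and with plain empirical Bayes (0.0563).

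ARNT, the partner that AhR needs to bind DNA (ENSG00000143437, chromosome 1, 150809705 to 150876768), rose in SNU2535 and NCI-H3122. It measured 17.7, 17.9 and 17.0 TPM with DMSO and 23.3, 22.2 and 21.2 TPM with TRI-611 in SNU2535, a rise of 0.33 (SE 0.0525, adjusted p = 0.00275). The NCI-H3122 libraries held 93.2, 91.1 and 90.7 TPM with DMSO and 114, 124 and 124 TPM with TRI-611, a rise of 0.39 (SE 0.0429, adjusted p = 0.000358). Neither line had overlapping groups. In NCI-H2228 the DMSO libraries held 25.0, 21.6 and 25.5 TPM and the TRI-611 libraries 26.7, 26.6 and 28.5 TPM. These did not overlap either, but the difference of 0.18 (95% interval 0.02 to 0.34) was not called (adjusted p = 0.149), except in a fit of all 18 libraries (0.0413).

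AHRR, the receptor's repressor (ENSG00000063438, chromosome 5, 304176 to 438291), rose in NCI-H3122, from 4.25, 3.30 and 3.77 TPM with DMSO to 8.57, 9.99 and 9.49 TPM with TRI-611. Every TRI-611 library was above 2 times the highest DMSO library, and the rise was 1.12 (SE 0.0997, adjusted p = 0.000136). In NCI-H2228 it measured 5.59, 5.92 and 5.65 TPM with DMSO and 6.99, 6.73 and 8.05 TPM with TRI-611. The difference of 0.29 (95% interval 0.09 to 0.50) missed the threshold (adjusted p = 0.0709) and passed it without mitochondrially encoded genes (0.0487) and in a fit of all 18 libraries (0.0313). In SNU2535 AHRR stayed under 1 TPM, at 0.868, 0.828 and 0.788 TPM with DMSO and 0.735, 0.602 and 0.753 TPM with TRI-611. There, with the filter lifted, the difference was -0.11 (adjusted p = 0.648). AHRR overlaps PDCD6 and shares 196 of its 7859 annotated 50-base words (2.49%) with it; PDCD6 differed by -0.01, -0.01 and 0.00 in SNU2535, NCI-H3122 and NCI-H2228, with no call.

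TIPARP, the enzyme that ADP-ribosylates AhR (ENSG00000163659, chromosome 3, 156673235 to 156706770), fell in SNU2535, where CYP1B1 rose. It measured 161, 148 and 160 TPM with DMSO and 98.8, 105 and 100 TPM with TRI-611, so that every TRI-611 library was below every DMSO library. It fell by 0.62 (SE 0.0435, adjusted p = 4.96e-05), and by 0.50 to 0.70 within batches. In NCI-H3122 the values were 108, 103 and 104 TPM with DMSO and 108, 106 and 103 TPM with TRI-611. These groups overlapped, and the 95% interval of the difference ran from -0.08 to 0.09 (adjusted p = 0.975). In NCI-H2228 TIPARP measured 72.4, 68.0 and 71.5 TPM with DMSO and 80.6, 75.3 and 79.4 TPM with TRI-611. The difference there was 0.15 (95% interval 0.05 to 0.25, adjusted p = 0.0657), and it was called once the batch entered as a replicate block (0.0489), with a filter at 5 TPM (0.0416), with quantile normalization (0.0131), without mitochondrially encoded genes (0.0206) and in a fit of all 18 libraries (0.019). The antisense neighbour TIPARP-AS1 was not called in SNU2535 (0.21, adjusted p = 0.522) or NCI-H2228 (0.57, adjusted p = 0.12), where it passed the filter only through its TRI-611 libraries, and was too low to test in NCI-H3122.

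NQO1, the quinone reductase (ENSG00000181019, chromosome 16, 69706996 to 69726951), was not called in any line. In SNU2535 it measured 3901, 4003 and 4144 TPM with DMSO and 4168, 4291 and 4328 TPM with TRI-611. The groups stood just apart, at a difference of 0.09 (95% interval 0.01 to 0.16, adjusted p = 0.0793), which passed the threshold after median-ratio scaling (0.0383) and without mitochondrially encoded genes (0.0483). For NCI-H3122 the values were 113, 104 and 111 TPM with DMSO and 115, 117 and 111 TPM with TRI-611. That difference of 0.07 (95% interval -0.03 to 0.17, adjusted p = 0.271) was called with quantile normalization (0.0146) and without mitochondrially encoded genes (0.0409). In NCI-H2228 it measured 3215, 3020 and 3091 TPM with DMSO and 3138, 2945 and 3138 TPM with TRI-611. These overlapped, and the interval of the difference ran from -0.10 to 0.07 (adjusted p = 0.827).

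ALDH3A1, the aldehyde dehydrogenase (ENSG00000108602, chromosome 17, 19737984 to 19748943), had its largest log2 rise in NCI-H3122, from 73.9, 64.0 and 71.4 TPM to 94.8, 101 and 91.7 TPM. The groups were separate, and the rise was 0.45 (SE 0.0615, adjusted p = 0.00106). In NCI-H2228 it measured 2086, 2071 and 2103 TPM with DMSO and 2275, 2299 and 2380 TPM with TRI-611, a rise of 0.15 (SE 0.027, adjusted p = 0.00927). That call was lost with quantile normalization (0.168), with plain empirical Bayes (0.0972) and in a fit of all 18 libraries (0.0632). In SNU2535 it measured 838, 917 and 945 TPM with DMSO and 988, 994 and 1058 TPM with TRI-611, a rise of 0.17 (SE 0.05, adjusted p = 0.0359). There every TRI-611 library was above every DMSO library. The SNU2535 call did not survive the removal of DMSO replicate 1 (0.0828) or 2 (0.0615), or of TRI-611 replicate 1 (0.056), 2 (0.0677) or 3 (0.104), with the filter lifted (0.0927), with quantile normalization (0.116) and with plain empirical Bayes (0.103).

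**Figure D2:**
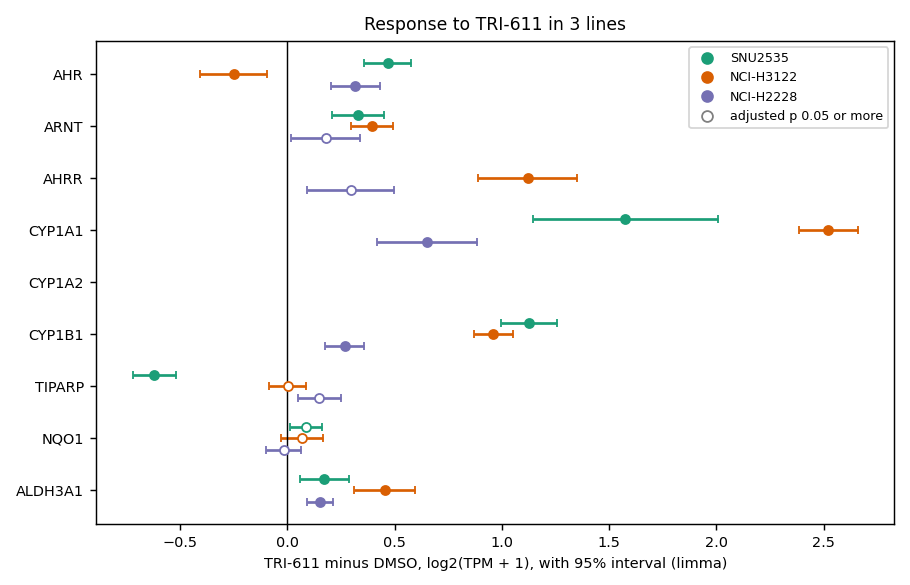
Difference between TRI-611 and DMSO for each gene and line on the log2(TPM + 1) scale, with limma's 95% interval; open points were not called, and untested genes have no point. CYP1A1 in NCI-H3122 stands farthest right at 2.52, and TIPARP in SNU2535 farthest left at -0.62.

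The next comparison asked whether the response differed between lines, as an interaction of line and treatment, over 13788, 14640 and 13878 genes for the 3 pairs of lines. In SNU2535 minus NCI-H3122, 1 AhR gene of 7 tested was called higher and 3 lower, beside 20.1% called over all genes (3.71% higher and 16.4% lower). In SNU2535 minus NCI-H2228, 2 of 7 were called higher and 1 lower, beside 10.6% over all genes (2.74% and 7.83%). In NCI-H3122 minus NCI-H2228, 4 of 8 were called higher and 1 lower, beside 14.3% (8.99% and 5.34%). CYP1A1 rose more in NCI-H3122 than in NCI-H2228 by 1.87 (SE 0.0856, adjusted p = 3.41e-08). CYP1B1 rose more in SNU2535 than in NCI-H2228 by 0.86 (SE 0.0725, adjusted p = 9.71e-06) and more in NCI-H3122 than in NCI-H2228 by 0.69 (SE 0.0556, adjusted p = 3.27e-06). For CYP1B1 in SNU2535 against NCI-H3122, the difference was 0.16 (95% interval 0.01 to 0.32, adjusted p = 0.125); it was called after median-ratio scaling (0.0199), after quantile normalization (0.0156) and without SNU2535 TRI-611 replicate 3 (0.0188). The order of SNU2535 and NCI-H3122 for CYP1A1 depended on the pseudocount. The response of SNU2535 was smaller by 0.95 (difference -0.95, adjusted p = 0.000669) with a pseudocount of 1, and larger by 0.65 (adjusted p = 0.341) with 0.1. Between SNU2535 and NCI-H2228 the CYP1A1 difference was 0.92 (adjusted p = 0.00955), 2.38 with a pseudocount of 0.1 and 0.20 with 5, which was not called (0.109). Both CYP1A1 contrasts with SNU2535 include a gene that passed the filter there only through the TRI-611 libraries, and are given as a description. Neither could be tested without any one of the TRI-611 libraries of SNU2535, since the gene then failed the filter.

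AHR's response in NCI-H3122 was below that in both other lines, by 0.72 against SNU2535 (SE 0.0869, adjusted p = 0.000134) and by 0.57 against NCI-H2228 (NCI-H3122 minus NCI-H2228 -0.57, SE 0.0873, adjusted p = 0.000767). TIPARP's response in SNU2535 was below that in NCI-H3122 (-0.62, SE 0.0573, adjusted p = 1.79e-05) and in NCI-H2228 (-0.77, SE 0.0615, adjusted p = 7.11e-06). AHRR rose more in NCI-H3122 than in NCI-H2228 by 0.82 (SE 0.131, adjusted p = 0.00102). ALDH3A1 rose more in NCI-H3122 than in NCI-H2228 by 0.30 (SE 0.0687, adjusted p = 0.0103). Between SNU2535 and NCI-H3122 the ALDH3A1 difference of -0.28 (adjusted p = 0.0328) did not keep its call with the replicate block (0.0505), with median-ratio scaling (0.175), with the filter lifted (0.0999) and with plain empirical Bayes (0.0638). It was also lost without SNU2535 DMSO replicate 2 (0.07) or 3 (0.0774), SNU2535 TRI-611 replicate 1 (0.0739) or 2 (0.0639), or NCI-H3122 replicate 2 of DMSO (0.0738) or of TRI-611 (0.0784). No response difference of ARNT was called (-0.07, 0.15 and 0.22 for the 3 pairs in the order above). The last of these, NCI-H3122 minus NCI-H2228 with an adjusted p = 0.108, was called with quantile normalization (0.0427) and without NCI-H2228 DMSO replicate 2 (0.0145). NQO1 differed by 0.02, 0.10 and 0.08, not called, except after median-ratio scaling between SNU2535 and NCI-H3122 (0.15, adjusted p = 0.0355).

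The DMSO libraries asked how far the lines differ before any degrader. All 8 AhR genes tested were called in each pair of lines, but so were most of the 18233 genes tested. CYP1A1 and AHRR stayed under 1 TPM in every DMSO library of SNU2535 and passed the filter only through the other lines. Both are in the SNU2535 counts below but had to differ there, so those contrasts of the 2 genes are a description and not a test. In SNU2535 against NCI-H3122, 4 AhR genes were higher and 4 lower, beside 76.1% called over all genes (45.4% higher and 30.7% lower). In SNU2535 against NCI-H2228, 2 were higher and 6 lower, beside 75.0% (32.4% and 42.6%). In NCI-H3122 against NCI-H2228, 3 were higher and 5 lower, beside 79.3% (30.0% and 49.3%). CYP1A1 ran from 0.236 ± 0.203 TPM (SD, n = 3) in SNU2535 over 2.61 ± 0.191 TPM in NCI-H2228 to 55.4 ± 3.99 TPM in NCI-H3122. NCI-H3122 thus held 21.2 times the mean of NCI-H2228 and 235 times that of SNU2535. The latter ratio rests on values near 0 and was 465 without SNU2535 DMSO replicate 3, which leaves a mean of 0.119 TPM. On the log2 scale, SNU2535 minus NCI-H3122 was -5.52 and NCI-H3122 minus NCI-H2228 was 3.96 (adjusted p = 1.39e-10 and 9.53e-10). The first of these ran from -7.53 with a pseudocount of 0.1 to -3.53 with 5, called with both. CYP1B1 had another order, lowest in NCI-H3122 and 9.86 times higher in NCI-H2228 (NCI-H3122 minus NCI-H2228 -3.28, adjusted p = 7.23e-13). ARNT was lowest in SNU2535 and 5.24 times higher in NCI-H3122 (SNU2535 minus NCI-H3122 -2.32, adjusted p = 5.06e-10).

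AHR differed least between the lines of the 8 genes tested, by 1.41 times from SNU2535 to NCI-H2228 (log2 difference -0.48, adjusted p = 0.000139). The DMSO libraries of SNU2535 and NCI-H3122 overlapped for AHR, and the call between them (-0.17, adjusted p = 0.0446) was lost without SNU2535 replicate 2 (0.141) or 3 (0.0829), NCI-H3122 replicate 1 (0.138) or 3 (0.134) or NCI-H2228 replicate 1 (0.0525). It was also lost with the filter lifted (0.0839) and with plain empirical Bayes (0.0697). AHR in NCI-H3122 was lower than in NCI-H2228 by 0.31 on this scale (difference -0.31, adjusted p = 0.00242), and by only 0.01 (-0.01, adjusted p = 0.871) after median-ratio scaling and 0.06 (-0.06, adjusted p = 0.378) after quantile normalization. AHRR was lowest in SNU2535 and highest in NCI-H2228, 6.91 times apart (-1.88, adjusted p = 5.05e-08). With AHRR under 1 TPM in SNU2535, that contrast is a description. Its difference between NCI-H3122 and NCI-H2228, -0.50 (adjusted p = 0.000648), came to -0.0042 (0.969) after quantile normalization. TIPARP ran the opposite way to AHRR and AHR, lowest in NCI-H2228 and 2.21 times higher in SNU2535 (1.14, adjusted p = 7.28e-09).

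NQO1 and ALDH3A1 set NCI-H3122 apart. NQO1 stood at 109 TPM in the DMSO libraries of NCI-H3122 against 3109 TPM in NCI-H2228 and 4016 TPM in SNU2535, a range of 36.7 times (SNU2535 minus NCI-H3122 5.19, adjusted p = 2.97e-13). Between SNU2535 and NCI-H2228 its difference of 0.37 (adjusted p = 1.24e-05) was 0.10 and not called (0.0779) after quantile normalization. ALDH3A1 spanned 29.9 times, from NCI-H3122 to NCI-H2228 (NCI-H3122 minus NCI-H2228 -4.89, adjusted p = 2.86e-12). The line with the lowest NQO1 and ALDH3A1 was thus the line with the highest CYP1A1 and ARNT. Within 500 kb of NQO1, 17 of 18 genes tested were higher in SNU2535 than in NCI-H3122 (median 0.97), beside 45.4% over all genes. In NCI-H3122 against NCI-H2228, 17 of 18 were lower (median -1.04), beside 49.3%. Around ALDH3A1, 11 of 14 were higher and 2 lower in the first comparison, and 3 higher and 6 lower in the second. The part of the regions in these levels was not tested. Of 27 NRF2 pathway genes, 24 were higher and 3 lower in SNU2535 than in NCI-H3122, with a median difference of 2.60 beside 0.16 over all genes tested. In NCI-H3122 against NCI-H2228, 2 were higher and 25 lower, with a median of -3.02 beside -0.25 over all genes. Both counts include AKR1C1 and ABCC2, with DMSO means of 0.356 and 0.367 TPM in NCI-H3122. These genes passed the filter through the other lines and so had to differ, which makes their contrasts with NCI-H3122 a description. The genes named next were chosen after their values were seen. AKR1B10, a reductase of carbonyl compounds, measured 1530 ± 33.2, 1.39 ± 0.342 and 1527 ± 23.5 TPM (SD, n = 3) in SNU2535, NCI-H3122 and NCI-H2228. EPHX1, the microsomal epoxide hydrolase, measured 1152 ± 15.4, 39.1 ± 2.07 and 1513 ± 52.2 TPM in the same order. TXNRD1, which recycles thioredoxin, measured 1032 ± 24.7, 201 ± 3.90 and 2346 ± 87.1 TPM. NFE2L2, which encodes NRF2, did not share this order, at 70.6 ± 1.79, 85.2 ± 4.33 and 57.8 ± 1.83 TPM.

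**Figure D3:**
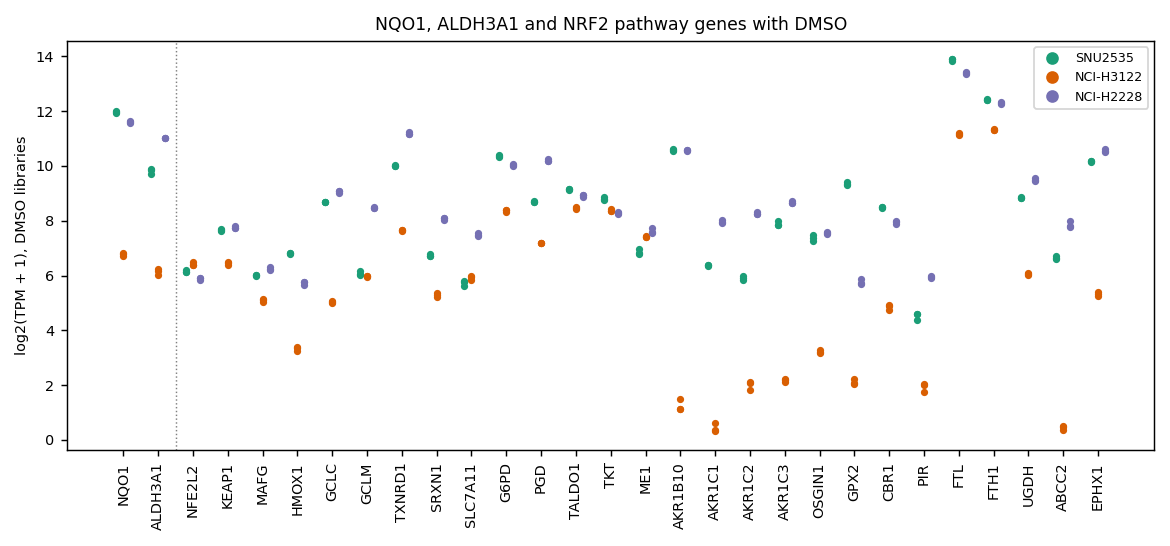
Level of NQO1, ALDH3A1 and the 27 NRF2 pathway genes in the 9 DMSO libraries, as log2(TPM + 1), coloured by line. NCI-H3122 lies below both other lines for NQO1, ALDH3A1 and AKR1B10, which it holds at a mean of 1.39 TPM, and above them for NFE2L2.

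The high ARNT of NCI-H3122 was shared by its chromosomal neighbours, a window that was examined after the value of ARNT was seen. Within 500 kb of ARNT on chromosome 1, 25 of 39 genes tested (64.1%) were called higher in the DMSO libraries of NCI-H3122 than in both other lines. The share was 18.8% (3435 of 18233) over all genes and 18.1% (336 of 1857) on chromosome 1. Some of the 25 passed the filter mostly through NCI-H3122 and so had to differ. AL356356.1, for example, had means of 0.156, 1.85 and 0.362 TPM in SNU2535, NCI-H3122 and NCI-H2228. How many did so was not counted, and the same filter holds for the shares over all genes and on chromosome 1. The neighbours had median differences of 1.86 against SNU2535 and 1.41 against NCI-H2228, beside -0.16 and -0.25 over all genes. MCL1, the anti-apoptotic BCL2 relative, measured 348, 1932 and 285 TPM in SNU2535, NCI-H3122 and NCI-H2228 (means of 3). SETDB1, a histone H3 lysine methyltransferase, measured 19.9, 121 and 24.0 TPM. CTSS, the lysosomal protease cathepsin S, went the other way inside the same window, at 53.0, 9.27 and 87.1 TPM. So did ANXA9, at 35.5, 9.52 and 11.9 TPM, and SELENBP1, at 136, 38.4 and 60.7 TPM. Further genes were called lower in NCI-H3122 than in only 1 of the other lines. MINDY1 was lower than in SNU2535 (-1.23, adjusted p = 1.14e-07) and not called against NCI-H2228 (-0.06, adjusted p = 0.415). MLLT11 was lower than in NCI-H2228 (-1.30, adjusted p = 4.06e-08) but called higher than in SNU2535 (3.13, adjusted p = 1.21e-10). The genes named from this window were not set beforehand. The copy number of the region was not measured here.

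**Figure D4:**
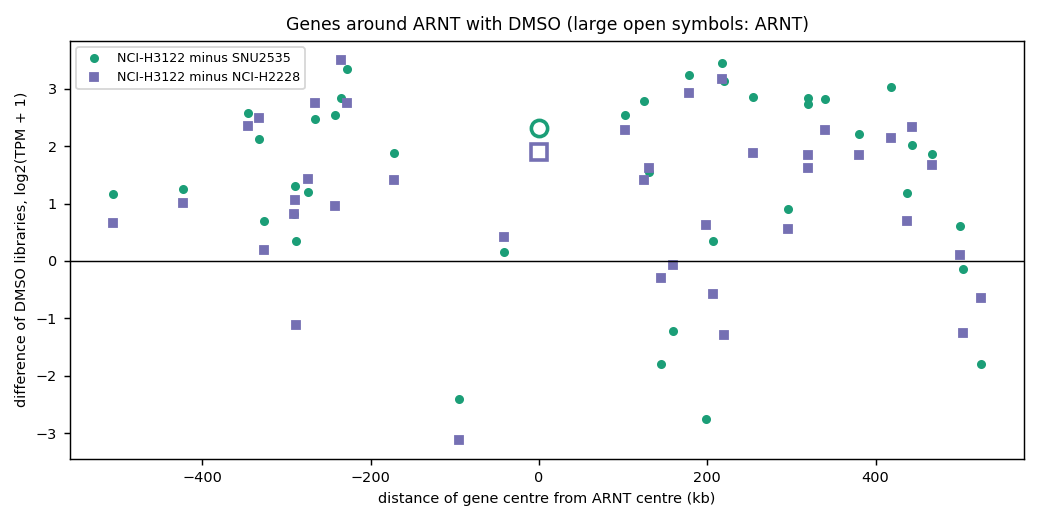
Difference of the DMSO libraries between NCI-H3122 and each other line, on the log2(TPM + 1) scale, for the genes tested within 500 kb of ARNT, by distance of gene centres in kb. Most points lie above 0, with medians of 1.86 and 1.41, and the large open symbols mark ARNT at 2.32 and 1.89.

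The other genes of the pathway were read from lists by role, first those that hold AhR in the cytosol. Of 5 genes of the AhR complex, 2 fell in SNU2535, 3 fell and 1 rose in NCI-H3122, and 1 fell in NCI-H2228. Over all genes tested in these lines, 10.7%, 20.6% and 4.80% were called higher and 18.1%, 13.4% and 6.40% lower. HSP90AB1, a chaperone subunit, fell in SNU2535 (-0.15, adjusted p = 0.00616) and NCI-H2228 (-0.19, adjusted p = 0.0121), and HSP90AA1 fell in NCI-H3122 (-0.15, adjusted p = 0.0114). The NCI-H2228 and NCI-H3122 calls of these chaperones were lost with plain empirical Bayes (0.0908 and 0.0535). SRC, a kinase found with AhR, fell in NCI-H3122 (-0.30, adjusted p = 0.00483). Its call in SNU2535 (-0.16, adjusted p = 0.029) did not hold with the replicate block (0.0703). That call was also lost without any library except DMSO replicate 1 (0.0529 to 0.0864). The same held with the filter lifted (0.0608), median-ratio scaling (0.0556), quantile normalization (0.179) and plain empirical Bayes (0.054).

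Among the bHLH-PAS relatives, which include the other partners of ARNT, 1 of 8 rose and 3 fell in SNU2535 and in NCI-H3122, and 2 of 9 fell in NCI-H2228. The shares over all genes in SNU2535, NCI-H3122 and NCI-H2228 were 10.7%, 20.6% and 4.80% higher and 18.1%, 13.4% and 6.40% lower. HIF1A, the hypoxia factor that also pairs with ARNT, fell in all 3 lines, by 0.92, 0.46 and 0.47 in SNU2535, NCI-H3122 and NCI-H2228 (adjusted p = 2.39e-05, 0.000555 and 0.000569). In SNU2535 it went from 420 ± 11.0 to 222 ± 17.1 TPM (SD, n = 3). EPAS1, its close relative, fell by 0.20 in NCI-H2228 (adjusted p = 0.00975; 0.0542 with plain empirical Bayes), and CLOCK, of the circadian clock, fell by 0.47 in SNU2535 (adjusted p = 0.00113). ARNTL, which pairs with CLOCK, rose in NCI-H3122 (0.27, adjusted p = 0.0123), and its mean in SNU2535 went from 20.9 to 26.9 TPM without overlap. CLOCK went from 19.4 to 16.8 TPM in NCI-H3122, without overlap. EPAS1 went from 92.1 to 82.0 TPM in SNU2535 and from 103 to 95.4 TPM in NCI-H3122, without overlap. A pair of calls lay near the threshold. NPAS2 in SNU2535 (-0.39, adjusted p = 0.0395) was lost without any 1 of the 6 libraries (adjusted p 0.0502 to 0.125) while its difference stayed at -0.44 to -0.35, and with the block (0.0842) and the filter lifted (0.0607). ARNT2 in NCI-H3122 (-0.40, adjusted p = 0.037) was lost when DMSO replicate 1 (0.109) or 3 (0.104) was left out, or TRI-611 replicate 2 (0.0576) or 3 (0.0858), with the filter lifted (0.101) and with plain empirical Bayes (0.0575). Its difference stayed at -0.49 to -0.29.

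Of 8 AhR coactivators and corepressors, 2 rose and 2 fell in SNU2535, 4 rose in NCI-H3122, and 3 rose and 1 fell in NCI-H2228. The shares over all genes in SNU2535, NCI-H3122 and NCI-H2228 were 10.7%, 20.6% and 4.80% higher and 18.1%, 13.4% and 6.40% lower. NCOA2, a p160 coactivator, rose by 0.97 in NCI-H3122 (adjusted p = 3.95e-05) and by 0.34 in SNU2535 (adjusted p = 0.00156). CREBBP, a histone acetyltransferase, rose in NCI-H3122 (0.50, adjusted p = 0.000102) and SNU2535 (0.34, adjusted p = 0.00103), and NCOA3 rose in NCI-H3122 (0.34, adjusted p = 0.00463). NRIP1, a corepressor of nuclear receptors, fell in SNU2535 (-0.66, adjusted p = 8.08e-05) and NCI-H2228 (-0.61, adjusted p = 0.00041). In NCI-H2228 the rises of NCOA2 (0.34, adjusted p = 0.045) and NCOA3 (0.27, adjusted p = 0.0476) lay near the threshold, and both calls were lost with the filter lifted (0.13 and 0.135) and with plain empirical Bayes (0.0947 and 0.107). NCOA2 was lost without any library except DMSO replicate 3 (0.0591 to 0.136), at differences of 0.24 to 0.38 over the 6 fits that leave out 1 library. NCOA3 was lost when DMSO replicate 1 (0.139) or 2 (0.127) was left out, or TRI-611 replicate 1 (0.127) or 3 (0.135), at differences of 0.21 to 0.33.

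The wider set of genes reported to be induced by AhR had calls in both directions in every line. In SNU2535, 4 of 14 rose and 6 fell, in NCI-H3122 3 of 11 rose and 5 fell, and in NCI-H2228 3 of 13 rose and 4 fell. Their median differences were 0.15, -0.11 and 0.07, beside -0.02, 0.05 and 0.01 over all genes tested. Of all genes tested in these lines, 10.7%, 20.6% and 4.80% were called higher and 18.1%, 13.4% and 6.40% lower. EREG, the EGF receptor ligand epiregulin, fell in every line, by 2.05, 2.61 and 1.02 in SNU2535, NCI-H3122 and NCI-H2228 (adjusted p = 6.85e-06, 3.45e-07 and 1.96e-05). HES1, a repressor downstream of Notch, fell by 1.95, 0.53 and 0.27 (adjusted p = 9.29e-06, 0.000526 and 0.0181). PTGS2, the inducible cyclooxygenase, fell by 0.51, 1.28 and 0.61 (adjusted p = 0.000355, 3.35e-06 and 0.00608). STC2, a secreted glycoprotein, fell by 1.62 in SNU2535 and 0.84 in NCI-H3122 (adjusted p = 4.13e-06 and 1.82e-05) and was not called in NCI-H2228 (-0.17, adjusted p = 0.0518). CDKN1B, the cell cycle inhibitor p27, rose in every line, by 0.93, 0.87 and 0.86 (adjusted p = 2.25e-06, 1.19e-05 and 2.3e-05). VAV3, a guanine nucleotide exchange factor, rose by 0.70 in NCI-H2228 (adjusted p = 0.00514). In SNU2535 it went from a mean of 0.540 to 2.15 TPM, but passed the filter only through the TRI-611 libraries and so had to differ. It is 1 of the 4 rises of the list in SNU2535. SCIN passed the filter in the same way in SNU2535 and NCI-H2228 and was not called there.

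The NRF2 pathway, which shares NQO1 and ALDH3A1 with AhR, had 8 rises and 6 falls of 27 in SNU2535, 14 rises and 4 falls of 25 in NCI-H3122 and 5 rises and 2 falls of 27 in NCI-H2228. The medians were 0.02, 0.14 and 0.02, beside -0.02, 0.05 and 0.01 over all genes tested. Of all genes tested in these lines, 10.7%, 20.6% and 4.80% were called higher and 18.1%, 13.4% and 6.40% lower. AKR1C2, an aldo-keto reductase, rose in NCI-H3122 from 3.05 ± 0.458 to 7.77 ± 0.765 TPM (SD, n = 3; by 1.12, adjusted p = 0.000271), as did GPX2, a glutathione peroxidase (0.87, adjusted p = 0.0013). HMOX1, heme oxygenase 1, rose by 0.53 and the transporter ABCC2 by 0.37 in NCI-H2228 (adjusted p = 0.000811 and 0.00794). The mean of HMOX1 also went from 9.07 to 16.0 TPM in NCI-H3122, without overlap, while its groups overlapped in SNU2535. OSGIN1, a growth inhibitor, fell in all 3 lines, by 1.00, 0.92 and 0.63 in SNU2535, NCI-H3122 and NCI-H2228 (adjusted p = 3.9e-05, 9.28e-05 and 2.97e-05). MAFG, a small MAF partner of NRF2, and SRXN1, which repairs peroxiredoxins, fell in SNU2535 by 0.77 and 0.60 (adjusted p = 8.7e-05 and 2.03e-05). In NCI-H3122 their means also fell without overlap, from 33.1 to 23.7 TPM for MAFG and from 38.2 to 27.8 TPM for SRXN1. In NCI-H2228 SRXN1 went from 270 to 229 TPM without overlap, and the groups of MAFG overlapped.

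Of 8 paralogs of ALDH3A1, NQO1 and TIPARP, 1 rose and 1 fell in SNU2535, 5 of 7 tested rose in NCI-H3122, and limma called 0 of 7 in NCI-H2228, where 1 had an unadjusted p under 0.05. The shares over all genes in SNU2535, NCI-H3122 and NCI-H2228 were 10.7%, 20.6% and 4.80% higher and 18.1%, 13.4% and 6.40% lower. ALDH3B1, the ALDH3A1 relative, rose in NCI-H3122 (0.51, adjusted p = 0.000176) and SNU2535 (0.29, adjusted p = 0.00181), and ALDH3B2 in NCI-H3122 (0.66, adjusted p = 0.0055). PARP12, a relative of TIPARP, was called lower in SNU2535 (-0.27, adjusted p = 0.0132), which missed the threshold without DMSO replicate 1 (0.0516). It was called higher in NCI-H3122 (0.34, adjusted p = 0.0212), which was lost with the block (0.0602), with quantile normalization (0.073) and when DMSO replicate 2 (0.0708) or 3 (0.0714) was left out, or TRI-611 replicate 3 (0.0687).

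**Figure D5:**
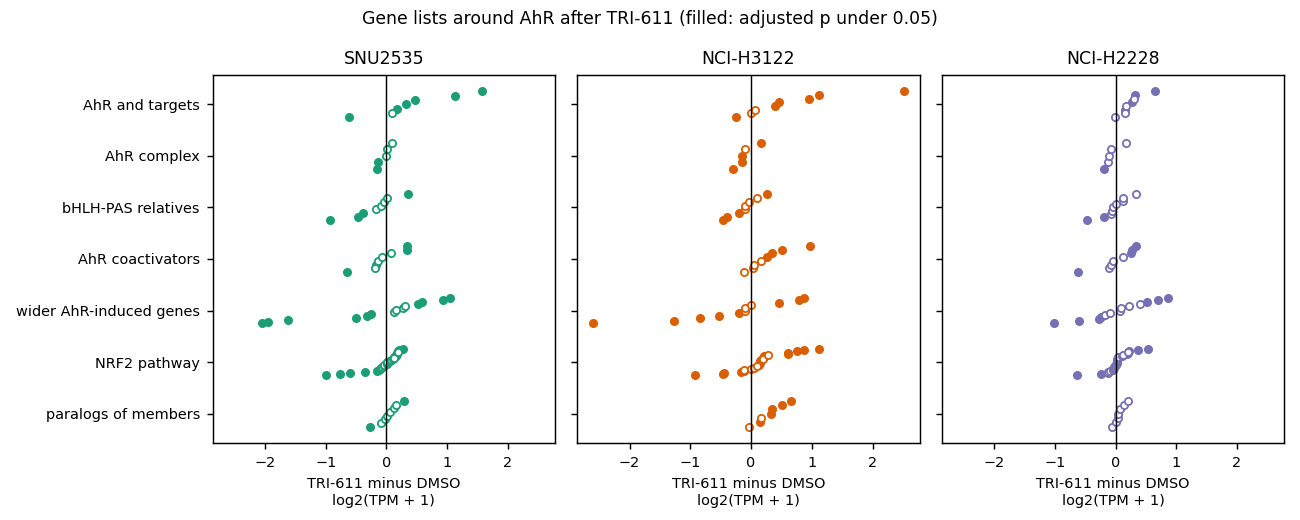
Difference between TRI-611 and DMSO on the log2(TPM + 1) scale for every tested gene of 7 lists, by line; filled points were called. The AhR genes lie mostly to the right of 0, with TIPARP at -0.62 in SNU2535 and AHR at -0.25 in NCI-H3122 as called exceptions, and the wider AhR-induced genes lie on both sides.

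Likeness to CYP1A1 was measured as Pearson's r over the 18 libraries among 19939 genes, as a description, since the libraries share lines and treatment. On levels, the genes nearest to CYP1A1 were RPRD2 (r = 0.9956), GOLPH3L (0.9902), FNBP1L (0.9883), PRKAB2 (0.9876) and SPTBN1 (0.9871). RPRD2 and GOLPH3L are among the neighbours of ARNT, and ARNT itself reached 0.9819. NQO1 (-0.938) and ALDH3A1 (-0.839) ran opposite to CYP1A1 on levels. AHRR was at 0.631, TIPARP at -0.0658, CYP1B1 at -0.3878 and AHR at -0.4296. After the mean of each line was taken off, which leaves the change with TRI-611 and the spread of replicates, DEPP1 (0.9905), ERBB2 (0.9894), NCAPD2 (0.9882), WIPI2 (0.9879) and ID2 (0.9877) came nearest. On that measure CYP1B1 (0.9447), ARNT (0.9288) and ALDH3A1 (0.9251) were the highest of the AhR genes. AHRR (0.7806) came next, then NQO1 (0.603), which TRI-611 changed by no call in any line. AHR was at 0.1658, and TIPARP ran opposite (-0.4297).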

How the data were processed

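RNA-seq of 18 libraries was deposited by the authors as 1 table of TPM values for 57500 genes, with gene IDs and names. Per the submitters' processing notes, the tools were STAR 2.5.2b, fastp 0.23.1, Subread 1.5.2, featureCounts and DESeq2, on GRCh38; what annotation, strand setting and derivation of TPM were used is not given in the sources used here. TPM holds no read totals, so depth is unknown. Coordinates and overlaps came from GENCODE 29 (GRCh38).

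TPM was transformed to log2(TPM + 1), which understates changes of low genes. Genes reaching a TPM of 1 in 3 libraries or more (of the 6 of a line, in both lines of a pair, or of the 9 DMSO libraries) were tested with limma 3.58.1 (trended, robust empirical Bayes) in R 4.3.3, two-sided, with Benjamini-Hochberg adjustment over all genes tested. SE is limma's. The steps were tested on simulated data. Named genes were the 9 genes, up to 3 called genes per list and line with the largest change, the listed overlapping transcripts and the 5 genes most like CYP1A1 by each measure. A gene named for 1 line may thus have changed in another as well. The genes named around ARNT and the NRF2 pathway genes named for DMSO levels lie outside this rule. 1 gene of the lists is not reported here. The genes and lists were chosen with earlier results of these data known.

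Batch and replicate number coincide in the labels and pair the libraries. Deviations from group means correlated between same-numbered libraries at r = -0.0228, 0.0437 and 0.00966 (SNU2535, batches 1 to 3), r = -0.0865, -0.029 and 0.0152 (the same for NCI-H3122) and r = 0.101, 0.00343 and 0.083 (for NCI-H2228) (across genes, which are not independent replicates). Alternatives were pseudocounts of 0.1 and 5, no filter and a filter at 5 TPM, the replicate block, median-ratio scaling, quantile normalization, removal of mitochondrially encoded genes, plain empirical Bayes, a joint fit of the 18 libraries and leaving out each library.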

Additional observations from a re-analysis of the deposited data

Results flagged for a closer look

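The response to TRI-611 differed between lines by the interaction test for 12 pairs of gene and lines (log2 scale, the first line minus the second), and no cause was tested. Between SNU2535 and NCI-H3122 the differences were 0.72 for AHR, -0.95 for CYP1A1, -0.62 for TIPARP and -0.28 for ALDH3A1. Between SNU2535 and NCI-H2228 they were 0.92 for CYP1A1, 0.86 for CYP1B1 and -0.77 for TIPARP. Between NCI-H3122 and NCI-H2228 they were -0.57 for AHR, 0.82 for AHRR, 1.87 for CYP1A1, 0.69 for CYP1B1 and 0.30 for ALDH3A1. The CYP1A1 contrasts with SNU2535 are a description, since the gene passed the filter there only through its TRI-611 libraries, and with a pseudocount of 0.1 the -0.95 became 0.65 (adjusted p = 0.341). AHR was called in opposite directions in SNU2535 and NCI-H3122, and the fall in NCI-H3122 was the less certain of the calls. The pairs share lines, so these differences are not independent of one another.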

How the results depend on the processing

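The 3 replicates per group, the unknown depth and the pseudocount limit values of a few TPM, above all CYP1A1 in SNU2535 and CYP1A2. Of 1294 recomputed values of the 9 genes, 1217 kept their direction and side of the threshold, 38 lost a call, 21 gained one and 18 changed sign. The replicate block changed 2 calls of the 9 genes, TIPARP in NCI-H2228 and the ALDH3A1 difference, and 3 of the list genes named above (SRC and NPAS2 in SNU2535, PARP12 in NCI-H3122), all given with their values, and no other call of these genes. Counts of the AhR genes called between SNU2535 and NCI-H3122 for the difference in response ran from 2 to 4 without 1 replicate. The CYP1A1 difference between SNU2535 and NCI-H3122 turned from a called -0.95 to 0.65, not called, with a pseudocount of 0.1. Small, uncalled differences also changed sign. After median-ratio scaling these were ARNT in the same contrast (0.0625), TIPARP (-0.0707) and NQO1 (-0.00535) in NCI-H3122 and PDCD6 in SNU2535 (0.0188) and NCI-H2228 (-0.00755). Quantile normalization changed the sign of PDCD6 in SNU2535 (0.0585) and NCI-H3122 (0.0172) and of the NQO1 difference between SNU2535 and NCI-H3122 (-0.0885). Removal of mitochondrially encoded genes changed that of PDCD6 in NCI-H3122 (0.0111), NQO1 in NCI-H2228 (0.0119) and the ALDH3A1 difference between SNU2535 and NCI-H2228 (-0.000453). Without 1 replicate, PDCD6 ran from -0.0502 to 0.0374 in SNU2535, -0.0456 to 0.0321 in NCI-H3122 and -0.0361 to 0.0533 in NCI-H2228, TIPARP in NCI-H3122 from -0.0139 to 0.0241, and NQO1 in NCI-H2228 from -0.0369 to 0.0141. The differences of NQO1 between SNU2535 and NCI-H3122 ran from -0.0071 to 0.0534 and of ALDH3A1 between SNU2535 and NCI-H2228 from -0.0295 to 0.0572; none of these was called. The median of all genes between NCI-H3122 and NCI-H2228 with DMSO moved from -0.25 to -0.01 after median-ratio scaling and 0.06 after quantile normalization, and that between SNU2535 and NCI-H3122 from 0.16 to 0.01 and -0.05. Scaling also moved the split of all called genes: in SNU2535 1731 rose and 2941 fell, against 2506 and 2414 after quantile normalization, in NCI-H3122 3160 and 2054 against 2508 and 3163 after median-ratio scaling, and in NCI-H2228 806 and 1076 against 1181 and 924 without mitochondrially encoded genes. For the difference between SNU2535 and NCI-H3122, 512 called higher and 2257 lower became 1578 and 1242 after median-ratio scaling, for SNU2535 and NCI-H2228 401 and 1146 became 700 and 873, and for NCI-H3122 and NCI-H2228 1247 and 741 became 960 and 1221. With DMSO, 8270 and 5606 (SNU2535 against NCI-H3122) became 6686 and 7418 after quantile normalization, and 5478 and 8983 (NCI-H3122 against NCI-H2228) became 7650 and 6943. In NCI-H2228, 1882 genes were called with TRI-611, against 1052 with no filter, 1177 with plain empirical Bayes and 1152 to 1236 when replicate 1 or 2 of DMSO, or 1 or 3 of TRI-611, was left out. Of 672 recomputed counts for lists, 57 fell and 16 rose by over 1.5 times.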
